A study of Mus musculus with 598 samples.

Results

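The expression of 7 genes of the Notch pathway was followed in single cells of gastrulating mouse embryos: the receptors Notch1, Notch2 and Notch3, the ligand Jag1, and the genes Hes1, Hey1 and Nrarp, which are known to be switched on by Notch. They were chosen by name, and all 7 were found among the 40912 genes counted. Every cell had been sorted for Mesp1-GFP, a green fluorescent protein reporter that marks cells in which Mesp1, a transcription factor of the earliest mesoderm, has been active. Of 598 cells, 28.8% were wild type (WT) at E6.75, the embryonic age in days, 85 cells were knockout (KO) at that age, and 57.02% were wild type at E7.25, all with the reporter. The labels do not name the gene that was knocked out, the strain, or the embryo, litter or pool of any cell.

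Notch receptors sit in the cell surface and are bound by ligands of the Delta-like and Jagged families on neighbouring cells. Binding lets proteases cut the receptor, and the freed inner part enters the nucleus, joins the DNA-binding protein Rbpj and switches on repressors of the Hes and Hey families. In the early embryo the pathway is best known for segmenting the presomitic mesoderm and for its part in blood vessel and heart formation.

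Because the labels tie no cell to an embryo or pool, each group counted as 1 sample and could not be tested against another, no p-value is given, and cells were not treated as replicates. Levels are in CPM, the usual scaling of a gene's counts by the total of reads on genes, here with the cells of a group pooled. All intervals are at the 95% level (exact Poisson for CPM, Clopper-Pearson for percentages) and cover counting error only. The data showed 2 library sets, for which there is no label. Set 1 was defined by reads in 5 or more of Foxe1, Dusp15, Kcnk12, Pou3f3, Six3, Vax1, Sox3 and Hoxd13. It took in every knockout cell, 83 E6.75 cells of wild type, and E7.25 cells that made up 28.9% of the series. Set 2 held the other 89 cells of E6.75 and the other E7.25 cells (28.1% of the series) and was deeper, with a median of 2079708 reads per cell against 792889 in set 1. Knockout and wild type were therefore compared within set 1. Cells above 3 CPM over 3 Y-linked genes numbered 0 in set 2 at both ages, against 53 and 95 wild type cells in set 1. A difference between the sets thus cannot be told apart from one in Y-linked reads. Mesp1 stood at 7.40 CPM in knockout cells and at 406 to 531 CPM in the wild type sets. Of 10 blood and bone marrow genes, listed because the protocol text speaks of bone marrow, 2 to 4 reached 1 CPM in each group and set, and their sum lay between 7.21 and 19.03 CPM. It was highest in E7.25 cells of set 1, where Mpo stood at 2.37 CPM, Spi1 at 0.921 and Elane at 0.895, while Ptprc stayed at or below 0.0970 CPM in every group and set.

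The sequence just before 2 of the genes is shown because Notch1 differed most between knockout and wild type, and because Nrarp was the one gene of the 5 with an entry in the RefSeq promoter table (GRCm38.p6) in which a searched motif was found. Hes1 and Hey1 had no entry in that table. The letters run 5′ to 3′ on the strand of the gene, up to 250 bases before the annotated start and without bases that GENCODE places in an exon. Capitals mark CACGTG, a sequence that Hes and Hey proteins and other basic helix-loop-helix factors can bind.
Notch1 (chr2:26503825-26504072, minus strand): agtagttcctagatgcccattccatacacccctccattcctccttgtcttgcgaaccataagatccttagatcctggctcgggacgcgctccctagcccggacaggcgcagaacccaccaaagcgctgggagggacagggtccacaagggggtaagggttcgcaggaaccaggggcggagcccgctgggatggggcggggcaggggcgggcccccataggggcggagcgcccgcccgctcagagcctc
Nrarp (chr2:25180508-25180757, plus strand): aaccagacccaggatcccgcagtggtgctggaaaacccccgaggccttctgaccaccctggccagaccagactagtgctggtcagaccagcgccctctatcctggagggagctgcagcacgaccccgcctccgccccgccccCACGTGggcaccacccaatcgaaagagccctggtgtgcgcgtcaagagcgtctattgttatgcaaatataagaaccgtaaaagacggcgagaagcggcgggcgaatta
The motifs searched on both strands were TGGGAA, the core that Rbpj binds, CACGTG, and the looser CANNTG, of which CACGTG is one case. The Nrarp window held 1 CACGTG, and the windows of Notch1, Notch2, Notch3 and Jag1 held none of the 3 motifs. Over 32817 windows of 250 bases before a start in the table, from which exons were not cut, 21.6% held TGGGAA, 6.02% held CACGTG and 66.2% held CANNTG. A match is a run of letters, not a measured binding site. For Notch1, the RefSeq start used here lies inside the longer GENCODE gene.

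Notch1, a receptor needed for somite formation, is encoded on chromosome 2 (ENSMUSG00000026923, GRCm38 26457903 to 26516663, minus strand). Single knockout cells lay between 0 and 148.3 CPM of Notch1 with a median of 0. The wild type cells of set 1 lay between 0 and 113.4 CPM at E6.75 with a median of 3.51. In set 2 the medians were 14.3 CPM at E6.75 and 64.3 CPM at E7.25, and in set 1 at E7.25 the median was 14.6 CPM with a highest cell of 226.55. The lowest median was thus that of the knockout cells and the highest that of the deeper E7.25 set, and the single cells of all groups overlapped. Summed over cells, Notch1 stood at 4.69 CPM in knockout (4.30 to 5.11) and at 18.1 CPM in the matching wild type cells (17.3 to 18.997). The knockout sum rested on few cells: 5 cells gave 71.3% of its 534 reads, against 38.5% in the matching wild type cells. At E7.25 Notch1 stood at 39.04 CPM in set 1 and 89.5 CPM in set 2, against 21.5 CPM in set 2 at E6.75. Exons of Notch1 share 1068 bases with 0610009E02Rik and 414 with Gm13568 on the opposite strand. The library method named in the labels does not mark strand, so reads there cannot be told apart. Over all cells, the reads given to those 2 genes came to 0.656% and 0.00872% of those of Notch1.

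Notch2, a receptor of similar build, is on chromosome 3 (ENSMUSG00000027878, 98013527 to 98150361, plus strand). Its cell medians were 21.9 CPM in knockout, 28.5 and 32.2 CPM in sets 1 and 2 of E6.75 wild type, and 16.7 and 38.3 CPM at E7.25. Summed levels were 27.8, 45.4, 40.1, 32.03 and 61.6 CPM in the same order. Notch2 was read in nearly every cell, in 98.8% of knockout cells and in 92.8 to 100% of the cells of each wild type set. Knockout cells spanned 0 to 215.1 CPM and wild type cells of set 1 spanned 0 to 288.3 CPM, so the 2 groups overlapped over almost their whole range. Exons of Notch2 share 541 bases with Gm42820 on the same strand, for which no read count was available.

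Notch3, a receptor best known from the muscle cells of vessel walls, is on chromosome 17 (ENSMUSG00000038146, 32120820 to 32166852, minus strand). It was read in 31.8% of knockout cells and in 38.6% and 36.4% of wild type cells of set 1 at E6.75 and E7.25, with summed levels of 5.67 CPM in knockout, 6.32 CPM in wild type at E6.75 and 3.96 CPM at E7.25. In set 2 the levels were 10.9 and 12.5 CPM. The median cell had 0 CPM in all 3 groups of set 1, and 5.91 and 8.00 CPM in set 2, so the sets differed more than the groups. Its exons share 488 bases with the antisense gene Gm17276, whose reads came to 1.49% of those of Notch3.

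Jag1, a ligand of the Jagged family, is on chromosome 2 (ENSMUSG00000027276, 137081456 to 137116644, minus strand). Knockout cells lay between 0 and 145.97 CPM with a median of 3.99, and wild type cells of set 1 at E6.75 between 0 and 187.1 CPM with a median of 1.47. At E7.25 the medians were 18.3 CPM in set 1 and 41.1 CPM in set 2, with highest cells of 613 and 645 CPM. Summed Jag1 stood at 14.6 CPM in knockout, 13.5 and 30.2 CPM in sets 1 and 2 of E6.75 wild type, and 102.3 and 79.8 CPM at E7.25. The E7.25 cells held the highest values, although their lowest cells were at 0 CPM too. In set 1 at E7.25, 5 cells supplied 59.3% of the Jag1 reads, against 18.5% in set 2.

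Hes1, a transcriptional repressor that oscillates in many embryonic cells, is on chromosome 16 (ENSMUSG00000022528, 30064384 to 30067796, plus strand). Knockout cells lay between 4.27 and 531 CPM of Hes1 with a median of 115.9, and wild type cells of set 1 between 0 and 328.9 CPM with a median of 84.5. Set 2 at E6.75 had a median of 120 CPM, while at E7.25 the medians were 40.8 CPM in set 1 and 54.6 CPM in set 2. The summed levels were 152.96 CPM in knockout, 127.4 and 142.7 CPM in E6.75 wild type, and 57.1 and 69.3 CPM at E7.25. Hes1 was thus lowest at the later stage in both sets, with single cells up to 376 and 443 CPM there.

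Hey1, a related repressor known from the vessel wall and heart, is on chromosome 3 (ENSMUSG00000040289, 8663359 to 8667256, minus strand). Its median cell stood at 0 CPM in knockout, 12.9 and 14.4 CPM in sets 1 and 2 of E6.75 wild type, and 0.692 and 11.6 CPM at E7.25. Highest cells reached 263.2, 168.1, 147.8, 191.6 and 234.1 CPM in the same order, so the single highest cell was a knockout cell. Summed Hey1 stood at 13.5 CPM in knockout (12.9 to 14.2), 33.2 and 30.4 CPM in E6.75 wild type, and 12.5 and 22.2 CPM at E7.25.

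Nrarp, a small ankyrin-repeat protein that is induced by Notch and dampens it, is on chromosome 2 (ENSMUSG00000078202, 25180758 to 25183339, plus strand). The median cell was at 0 CPM in all groups and sets, and the highest cells lay between 21.1 and 48.3 CPM. Summed levels were 4.08 CPM in knockout, 1.52 and 2.19 CPM in E6.75 wild type, and 1.31 and 1.57 CPM at E7.25. The knockout sum was the highest, but 5 cells gave 77.9% of its 465 reads. Nrarp shares 2051 of its 2582 exonic bases with the antisense gene Gm38287, so here too the strands cannot be told apart. For Gm38287 no read count was available.

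**Figure D1:**
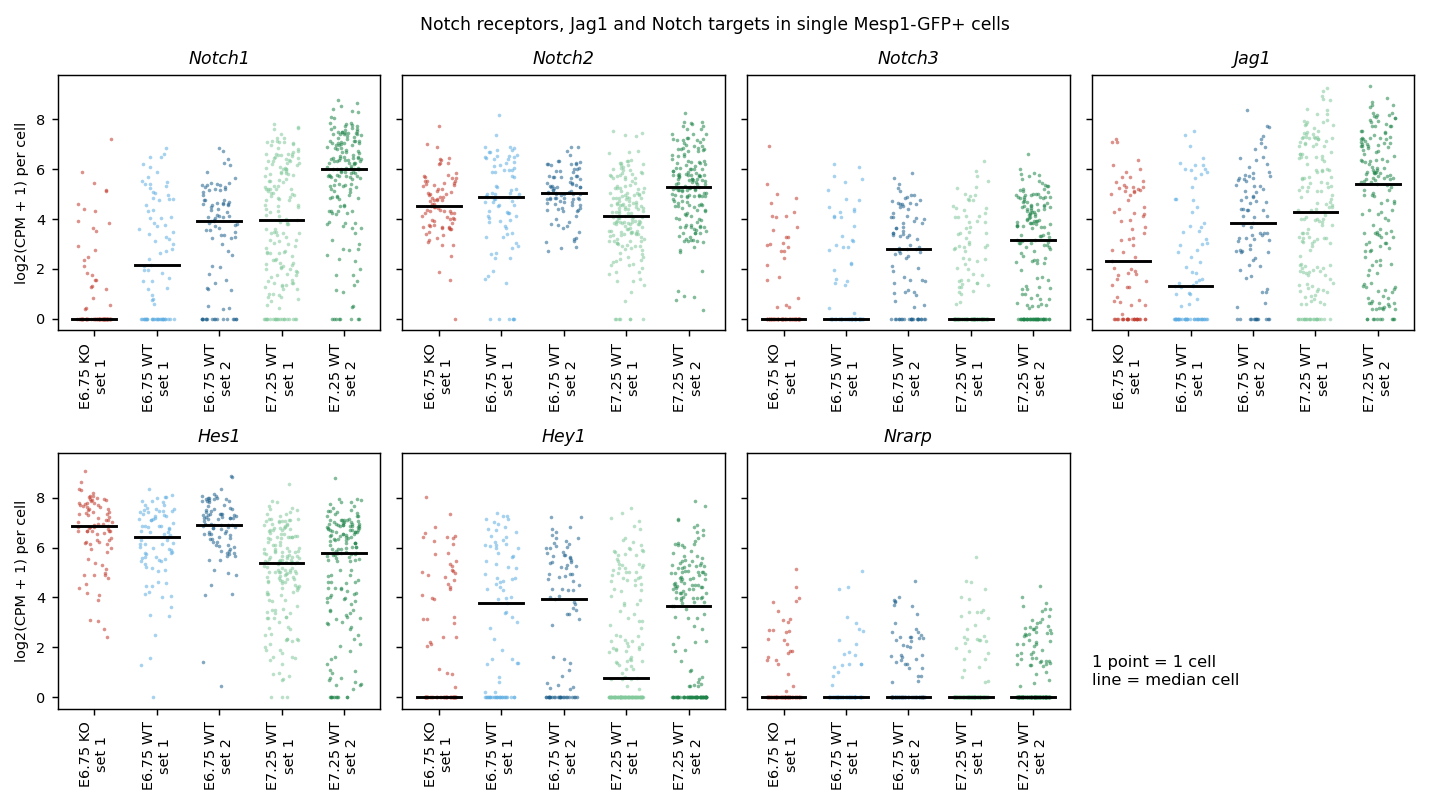
Level of each gene per cell, as log2(CPM + 1), by group and library set; each point is 1 cell and the black line is the median cell. The median of Notch1 is at 0 in knockout and highest in set 2 of E7.25, while that of Hes1 is lowest at E7.25 in both sets.

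Dividing by exonic length (14.23 kb for Notch1, 2.04 kb for Hes1) allowed the genes to be ranked within a group. Hes1 came first in every group and set, at 75.1 CPM per kb in knockout, 62.5 and 70.1 in sets 1 and 2 of E6.75 wild type, and 28.01 and 34.01 at E7.25. Second came Hey1 at E6.75, with 4.15 CPM per kb in knockout and 10.2 in the wild type cells of set 1. At E7.25 the second place was that of Jag1, with 17.6 CPM per kb in set 1 and 13.7 in set 2. Notch1 was last in knockout at 0.330 CPM per kb, behind Notch3 at 0.701, whereas in every wild type set it ranked above Notch3. Notch2 and Jag1 were neighbours in knockout, and their intervals overlapped (2.49 to 2.67 and 2.38 to 2.62 CPM per kb). At E6.75, Notch2 ranked above Jag1 in wild type set 1 and below it in set 2, and at E7.25 Notch2 ranked above Notch1 in set 1 and below it in set 2. Nrarp and Notch3 overlapped at E7.25 in set 1, at 0.509 and 0.490 CPM per kb. Neighbours that changed places between sets did not differ beyond the spread between sets.

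Knockout cells had less Notch1 and Hey1 than wild type cells of the same age and set, and 2 of the 7 genes were at least 2-fold lower. Over all 13934 genes of at least 1 CPM in either group, 7.64% were at least 2-fold lower. The log2 ratio of CPM + 1, which understates differences of low genes, was -1.75 for Notch1 and -1.23 for Hey1. One gene, Nrarp, was at least 2-fold higher at a log2 ratio of 1.01, against 4.8% of all genes, but it passed that line narrowly and stood at 0.44 without the deepest 10% of cells. Hes1 stood at 0.26, Jag1 at 0.10, Notch3 at -0.13 and Notch2 at -0.69. The median over the 7 genes was -0.13, beside -0.03 over all genes tested, with 4 genes below 0 and 3 above.

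The lower Notch1 was seen in the number of cells as well as in the sum. Of the knockout cells, 32.9% had a Notch1 read (23.1 to 43.98%), as did 66.3% of the wild type cells of set 1 (55.1 to 76.3%). With every cell thinned at random to 100000 reads, the shares were 17.6% (10.2 to 27.4%) and 49.4% (38.2 to 60.6%). The log2 ratio of Notch1 lay between -2.70 and -0.94 over 12 other ways of computing it, and in 1 of these, with 10 CPM added instead of 1, it was less than 2-fold. For Hey1 the shares of cells were 48.2% in knockout and 69.9% in wild type, or 38.8% and 53.01% after thinning. Its log2 ratio was -0.72 when every cell counted equally and -0.79 after thinning, but -1.36 without the deepest 10% of cells. Whether Hey1 was past 2-fold thus depended on how cells were weighted.

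Hes1, a known target of the receptors, was not lower in knockout. It was read in 100% of knockout cells and 98.8% of wild type cells of set 1, and its log2 ratio lay between 0.16 and 0.60 over the same 12 settings. Nrarp lay between 0.23 and 1.66. The signs of Notch2, Notch3 and Jag1 depended on which cells were used. Among set 1 cells with reads of Y-linked genes (49 knockout, 53 wild type), their log2 ratios were -1.21, 0.43 and -1.06. Among those without (36 and 30), they were 0.24, -1.02 and 1.88. Notch1 was lower on both sides of this split, at -1.57 and -1.997, where 5 cells gave 92.5% and 86.9% of the knockout reads. Hey1 was at -2.06 with Y-linked reads and at -0.28 without.

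With the wild type cells of both sets as the comparison, 2 of the 7 genes were again at least 2-fold lower, where 9.13% of all genes were, and none was higher, where 2.74% were. The lower 2 were Notch1 at -1.90 and Hey1 at -1.16, while Jag1 stood at -0.68 and Nrarp at 0.79. The median over the 7 genes was then -0.61, beside -0.11 over all genes tested. The set 2 cells added here were all without Y-linked reads.

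Markers of other cell states differed between the same cells. The sum over 9 epiblast genes was 2044 CPM in knockout, 1452 CPM in wild type set 1 and 1921 CPM in set 2, and all 9 reached 1 CPM in each. Nascent mesoderm genes, 9 in number with Mesp1 among them, had sums of 591 CPM (knockout) and 1844 CPM (wild type set 1). Of 12 haemato-endothelial genes, 4 reached 1 CPM in knockout and 8 in wild type set 1, with sums of 34.4 and 324.4 CPM. Cdh5 was listed at 0 in both and Sox7 at 0 in knockout. The epithelial gene Cdh1 was below 10 CPM in 57.6% of knockout cells and 74.7% of wild type cells of set 1. Among those cells alone (49 and 62), Notch1 had a log2 ratio of -2.70 and Hey1 of -1.24, against -1.75 and -1.23 over all cells compared. A cut on Cdh1 alone does not match the cells for state. The part of cell state, or of any marker list, in these differences was not tested. Fewer cells with a transcript and less of it per cell were separated only as far as the shares of cells above show.

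**Figure D2:**
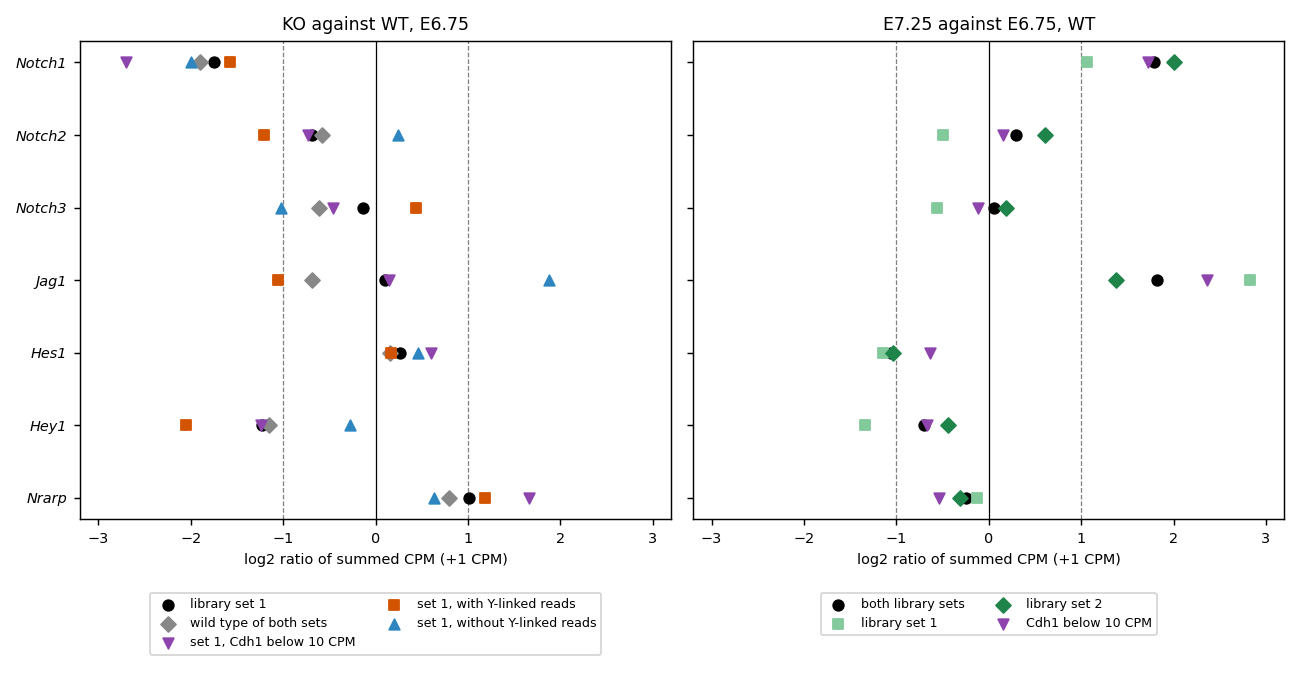
Log2 ratio of summed CPM + 1 for each gene, with KO against WT of E6.75 in the left panel and both ages of WT in the right (E7.25 over E6.75); each symbol is a choice of cells, and dashed lines mark 2-fold. The symbols of Notch1 lie between -2.70 and -1.57 in the left panel, whereas those of Jag1 run from -1.06 to 1.88.

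From E6.75 to E7.25, wild type cells had more Notch1 and more Jag1 and less Hes1. Over both sets, 2 of the 7 genes were at least 2-fold higher at E7.25, where 4.93% of 14217 genes were, and 1 was at least 2-fold lower, where 2.09% were. Jag1 had a log2 ratio of 1.82, from 24.01 to 87.4 CPM, and Notch1 of 1.79, from 20.2 to 72.6 CPM. Hes1 went from 137.05 to 65.2 CPM, a log2 ratio of -1.06 that lay just past 2-fold. Hey1 stood at -0.70, Nrarp at -0.24, Notch2 at 0.29 and Notch3 at 0.06. The median over the 7 genes was 0.06, beside 0.03 over all genes tested. This comparison and that of the knockout share E6.75 wild type cells, so values of the 2 are not independent.

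Within the sets the directions of Notch1, Jag1, Hes1, Hey1 and Nrarp held, while the sizes differed. Notch1 was at 1.07 in set 1 and 2.01 in set 2, and Jag1 at 2.83 in set 1 and 1.37 in set 2. For Jag1, 5 cells gave 59.3% of the E7.25 reads of set 1, against 18.5% in set 2. With every cell counted equally, Jag1 went from 17.1 to 68.6 CPM in set 1 and from 34.6 to 79.7 CPM in set 2. Hes1 was at -1.14 and -1.03. Hey1 was at -1.34 in set 1 and -0.44 in set 2, so that 2 of the 7 genes were at least 2-fold lower in set 1 (4.73% of all genes) and 1 in set 2 (2.6%). In both sets 2 of the 7 were at least 2-fold higher, beside 7.84% of all genes in set 1 and 6.12% in set 2. Notch2 changed sign, from -0.49 in set 1 to 0.61 in set 2, and so did Notch3, from -0.56 to 0.18. Because set 2 held no cell with Y-linked reads, depth, set and Y-linked reads cannot be separated in these changes of sign.

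After thinning, the share of cells with a Notch1 read was 49.4% at E6.75 and 60.7% at E7.25 in set 1, and 60.7% and 88.1% in set 2. The share with a Jag1 read was 32.5% and 66.5% in set 1, and 65.2% and 72.02% in set 2. Jag1 in set 2 was therefore read in about as many cells at both stages (54.3 to 74.96% and 64.6 to 78.7%) and stood higher in the sum. For Hes1 the shares were 95.2% and 79.8% in set 1, and 98.9% and 75.6% in set 2. Cdh1 was below 10 CPM in 51.7% of E6.75 cells and 75% of E7.25 cells of set 2. Among cells below that level in both sets, Jag1 had a log2 ratio of 2.36, Notch1 of 1.73 and Hes1 of -0.64. Marker lists differed between the stages too. The sum over 8 primitive streak genes was 2440 CPM at E6.75 and 817 CPM at E7.25 in set 1, and 3710 and 1390 CPM in set 2. All 8 reached 1 CPM, except 1 in set 1 at E7.25. Over 11 paraxial and presomitic mesoderm genes, which include Dll1 and Dll3, it was 205.8 and 669 CPM in set 1, and 239.4 and 1327 CPM in set 2. Of these 11, 7 and 10 reached 1 CPM in set 1 at the earlier and later stage, and 8 and 11 in set 2, and none was at 0. The part of these lists in the stage differences was not tested.

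Within E7.25 the ligand and the Hes and Hey repressors were highest in different clusters of cells. Cells were grouped into clusters within each library set from genes that included neither the 7 nor 54 other pathway genes. Clusters were named only where listed markers allowed, and no cluster was tested against the rest. Each set gave 7 clusters, and the level of Jag1 in those of set 2 went from 4.51 to 217.6 CPM. In set 1 it went from 3.85 to 185.6 CPM. The ratio of the highest to the lowest cluster was 48.3 in set 2 and 48.2 in set 1, and 18.3 and 33.8 with fewer clusters, at a resolution of 0.5.

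In set 1, Jag1 was lowest in an extraembryonic mesoderm-like cluster of 41 cells, led by Bmp4, Etv2 and Plac1, where the median cell had 1.27 CPM, and in a haemato-endothelial-like cluster of 14 cells at 4.15 CPM. The first of these held the highest Hes1 of the set, 96.5 CPM, and the second the highest Hey1, 39.1 CPM. Their markers overlapped, with haemato-endothelial sums of 554.7 and 532.7 CPM in that order. Of those 12 genes, 4 and 7 were at least 2-fold higher than in the rest. In set 2, Jag1 was lowest in an unnamed cluster of 27 cells led by Tbx3, Bmper and Kdr, where its median cell had 0.557 CPM. That cluster had 127.3 CPM of Hes1 and 53.7 CPM of Hey1, the highest Hey1 of the set. An unnamed cluster of 11 cells with Plac1, Gata5 and Tal1 among its leading genes had the highest Hes1 at 146.7 CPM, with Jag1 at 30.5 CPM and Notch2 at 143.2 CPM. The median Hes1 of those 11 cells was 61.8 CPM, against 114.5 CPM in the 27 cells, so the order of these 2 depended on whether cells were summed.

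Jag1 was high in the clusters led by Alx1, a homeobox gene, in both sets. In set 1 this unnamed cluster of 16 cells had 185.6 CPM of Jag1, with a lowest cell of 1.19 CPM and a median of 149.2. In set 2 it was a cluster of 19 cells, also led by Tcf15, with 185.7 CPM, a lowest cell of 48.2 CPM and a median of 128.9. Its name, paraxial and presomitic mesoderm-like, rested on Foxc1, Foxc2, Tcf15 and Meox1. In the same cells, 4 genes of the anterior and pharyngeal mesoderm list were at least 2-fold higher than in the rest too. The highest Jag1 of set 2, 217.6 CPM, was in an unnamed cluster of 20 cells led by Fgf5 and Lhx1. Hes1 was not low in these clusters. It stood at 63.2 CPM in the 16 cells, against 57.1 CPM over set 1. In the 19 and the 20 cells it stood at 80.1 and 76.3 CPM, against 69.3 CPM over set 2. The definitive endoderm and axial mesoderm-like clusters, whose leading genes included the epithelial genes Cldn6 and Cldn7, had 90.3 CPM in set 1 (33 cells) and 74.7 CPM in set 2 (30 cells). An unnamed cluster of 38 cells of set 1 had 168.4 CPM of Jag1 and held 10177 of the 18992 Jag1 reads of that set. Its median cell had only 22.3 CPM of Jag1, and its Hes1 was at 39.97 CPM.

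Notch1 was highest in set 2 in both clusters named from the paraxial and presomitic mesoderm list. It stood at 173.2 CPM in the 19 cells led by Alx1 and at 112.7 CPM in 51 cells led by Msgn1, Wnt3a and Hoxb1. Of that list, Tbx6, Dll1, Msgn1, Ripply2 and Hoxb1 were at least 2-fold higher in the 51 cells but not in the 19. Foxc1 was higher in both. The 51 cells had the lowest Hes1 of the set, 22.8 CPM (21.95 to 23.7), and 45.2 CPM of Jag1. In set 1, Notch1 was highest at 59.3 CPM in an unnamed cluster of 20 cells and lowest at 13.6 CPM in 11 cells of a median depth of 318814 reads. The Alx1-led cluster of set 1 had 39.1 CPM of Notch1, beside 39.04 CPM over all cells of that set. The high Notch1 of Alx1-led cells was thus seen in set 2 only. Notch2 was lowest at 18.5 CPM in the set 2 cluster with the highest Jag1, and at 12.2 CPM in the endoderm and axial-like cluster of set 1. Notch3 stayed between 7.16 and 25.7 CPM over the clusters of set 2, and Nrarp between 0.439 and 2.002 CPM. At the resolution of 0.5, the highest was at least 2-fold above the lowest in both sets for 4 of the 7 genes, against all 7 at a resolution of 1. The 4 were Jag1, Hes1, Hey1 and Notch3.

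At E6.75 most clusters could not be named. In set 2 a definitive endoderm and axial mesoderm-like cluster of 15 wild type cells had 80.2 CPM of Jag1, while the other clusters of those cells lay between 13.9 and 33.8 CPM. Among knockout cells, an epiblast-like cluster of 7 deeply read cells had 1.27 CPM of Jag1, 0.167 CPM of Hey1 and 171.9 CPM of Hes1. The other knockout clusters had 10.99 to 36.4 CPM of Hey1 and 131.04 to 172.2 CPM of Hes1.

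**Figure D3:**
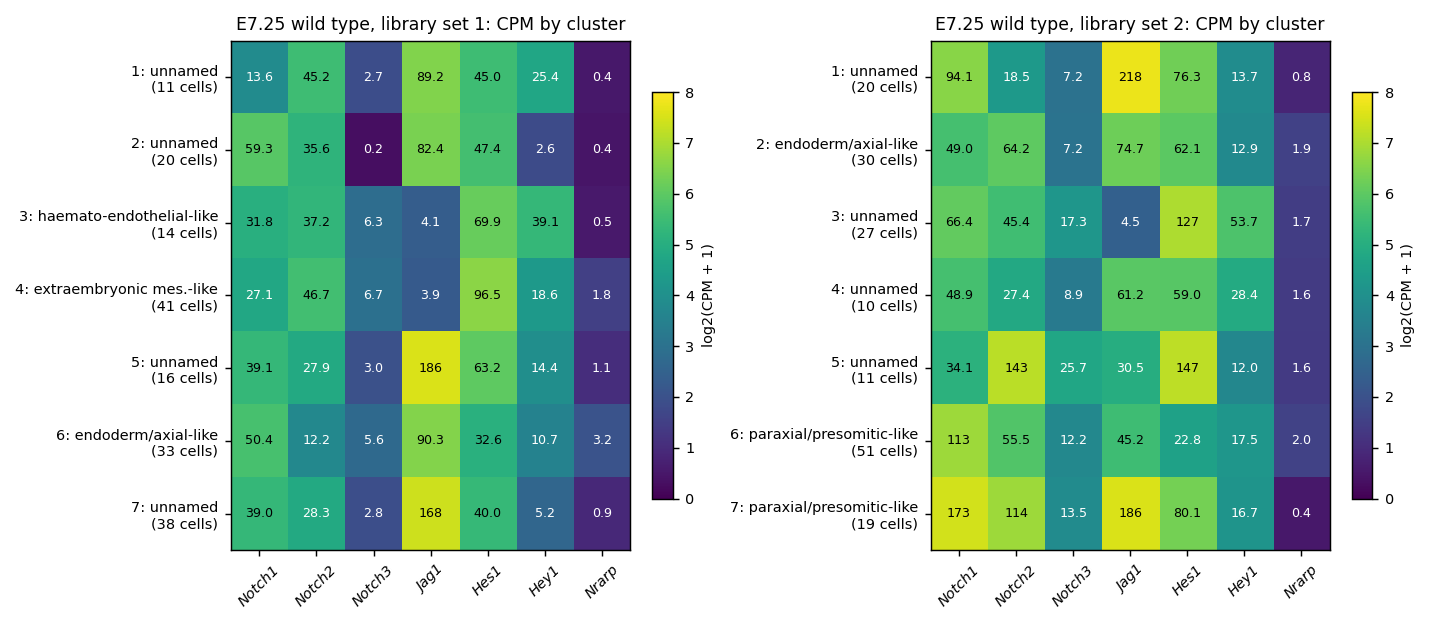
Summed CPM of each gene in the clusters of E7.25 wild type cells of set 1 (left) and set 2 (right), with colour showing log2(CPM + 1). Jag1 is below 5 CPM in 2 clusters of set 1 and 1 cluster of set 2, and Hes1 lies between 69.9 and 127.3 CPM in those clusters.

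Over single E7.25 cells, Notch1 correlated with Delta-like ligands and weakly, if at all, with the targets. Rank correlations were computed within each set, over the cells of set 1 and of set 2 (28.9% and 28.1% of the 598), which share their library set and vary in depth, and are descriptions without a test. Notch1 correlated with Dll3 at 0.29 in set 1 and 0.56 in set 2, with Dll1 at 0.32 and 0.42, and with Lfng, which modifies the receptor, at 0.33 and 0.49. With Hes1 it stood at -0.17 and -0.04, and with Hey1 at -0.17 and -0.03. Jag1 also went with Dll3 (0.46 and 0.41) and Dll1 (0.42 and 0.28) and stood at -0.30 and -0.07 with Hes1. Hes1 and Hey1 correlated with each other at 0.26 and 0.25, and Hes1 stood at -0.25 and -0.47 with Dll1. After thinning, Notch1 stood at 0.26 and 0.56 with Dll3, and Hes1 at -0.25 and -0.40 with Dll1. The correlation of Notch1 with Lfng was lower after thinning, at 0.19 in set 1 and 0.43 in set 2.

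**Figure D4:**
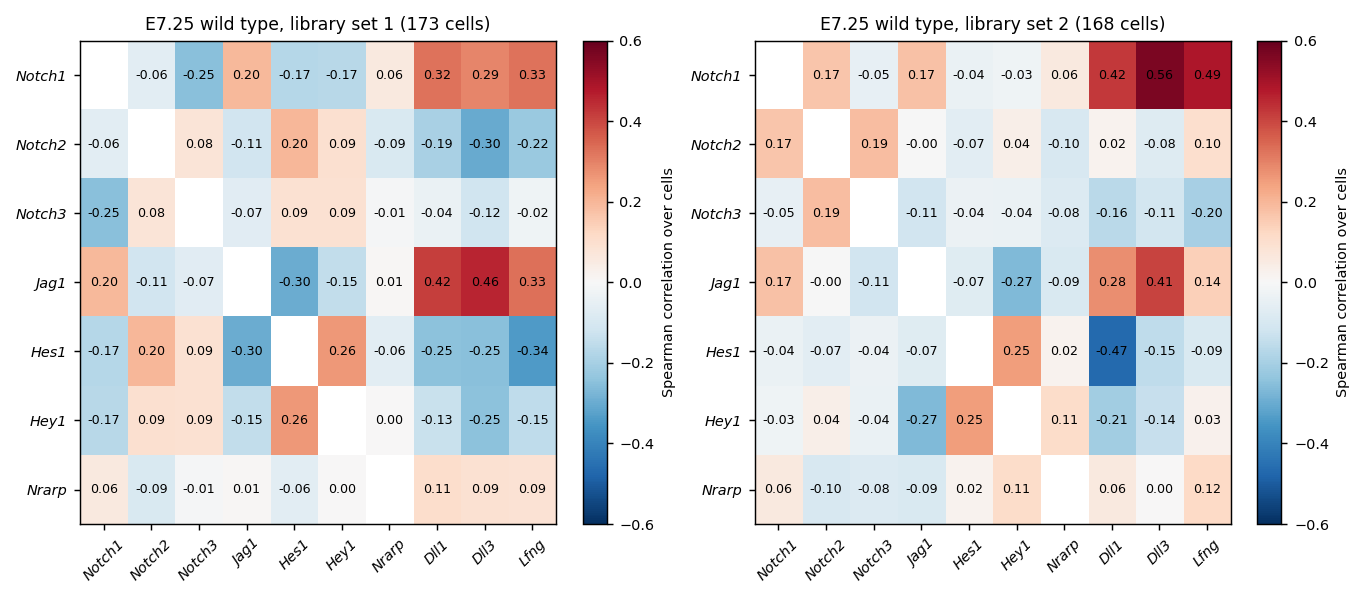
Rank correlations over single E7.25 wild type cells between the 7 genes and with Dll1, Dll3 and Lfng, in set 1 (left) and set 2 (right). Red marks positive and blue negative values, and the Notch1 row is red at Dll1, Dll3 and Lfng in both sets.

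Genes most alike in pattern were sought among 6895 genes by the mean of both within-set correlations, with 0.3 as the least named. For Notch1 they were Lef1 (0.39 and 0.50), a transcription factor of Wnt signalling, Dll3 and Inka1 (0.36 and 0.47). Jag1 was most like Sfrp1 (0.52 and 0.61), a secreted Wnt antagonist, Cd24a (0.53 and 0.60), a surface glycoprotein, and Lrig3 (0.47 and 0.54). Hes1 was most like Msx1 (0.43 and 0.40), Tbx3 (0.35 and 0.45) and Prdm6 (0.33 and 0.45), and Hey1 was most like Msx2 (0.26 and 0.39) and Hand1 (0.29 and 0.31), all transcriptional regulators. Notch2 was most like the lipid carrier Apoe (0.37 and 0.45), the growth factor Igf2 (0.35 and 0.42) and Kdelr2 (0.28 and 0.45). No gene reached 0.3 with Notch3 or Nrarp. Some of these names depended on depth. After thinning, the 3 genes of Notch1 were the same, but Jag1 had Otx2 in place of Lrig3, Hes1 had S100a10 in place of Tbx3, and Notch2 had Sparc and Krt18 in place of Igf2 and Kdelr2. For Hey1, Hand1 alone then reached 0.3.

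How many receptors were read in 1 cell differed between sets. At 100000 reads per cell, at least 1 of the 3 receptors was unread in most cells, and 37.5% of E7.25 cells of set 2 had reads of all 3. In set 1 that share was 6.36% at E7.25, 12.0% in wild type at E6.75 and 2.35% in knockout. No receptor was read in 15.3% of knockout cells and 4.82% of the matching wild type cells, and 1 receptor in 54.1% and 50.6%. In set 1 at E7.25, the ligand Jag1 was read more often in cells with Notch1. Of set 1 cells with Notch1 (60.7% of the set), 79.05% had Jag1, against 47.1% of the 68 without. In set 2 the shares were 72.3% of cells with Notch1 and 70% of the 20 without, so the difference was not seen there.

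Of 54 other genes of the pathway, 43 reached 1 CPM in knockout or wild type cells of set 1. Of these, 4 were at least 2-fold lower in knockout (7.64% of all genes were) and 1 was higher (4.8%), and their median log2 ratio was -0.10. The largest differences were those of ligands: Dll1, which activates Notch on neighbouring cells, had 2.48 CPM against 17.3 CPM, a log2 ratio of -2.40. Dll3, a ligand that acts inside its own cell, had 33.97 CPM against 149.2 CPM, a log2 ratio of -2.10. The ligase Neurl1a had a log2 ratio of -1.24 (2.02 and 6.16 CPM) and the coactivator Maml2 at -1.04 (2.26 and 5.69 CPM). The gene that was higher, named after its value was seen, was the glycosyltransferase Mfng at 1.15 (2.02 and 0.359 CPM). Within set 1, none of the 10 proteases that cut the receptor and none of the 8 corepressors was past 2-fold. With wild type cells of both sets, 8 genes were lower and 2 higher. The lower ones then included the protease Furin at -1.18 and the corepressor Tle3 at -1.66, named after their values were seen.

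At E7.25, 46 of the 54 reached 1 CPM in either stage, 7 were at least 2-fold higher (4.93% of all genes were) and 0 lower (2.09%), with a median log2 ratio of 0.24. Dll1 stood at 190.8 CPM against 16.9, a log2 ratio of 3.42, and in 92.3% of set 2 cells against 56.2%. Dll3 stood at 506 against 162.5 CPM, a log2 ratio of 1.63. Lfng was at 1.79 (14.2 and 3.40 CPM), Maml2 at 1.44 and the protease subunit Aph1c at 1.20. Maml3, at 1.03, and the segmentation clock gene Hes7, at 2.37 (4.38 and 0.0390 CPM), were named after their values were seen. Lists and members were both chosen with such results known, so these counts do not stand as independent support.

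**Figure D5:**
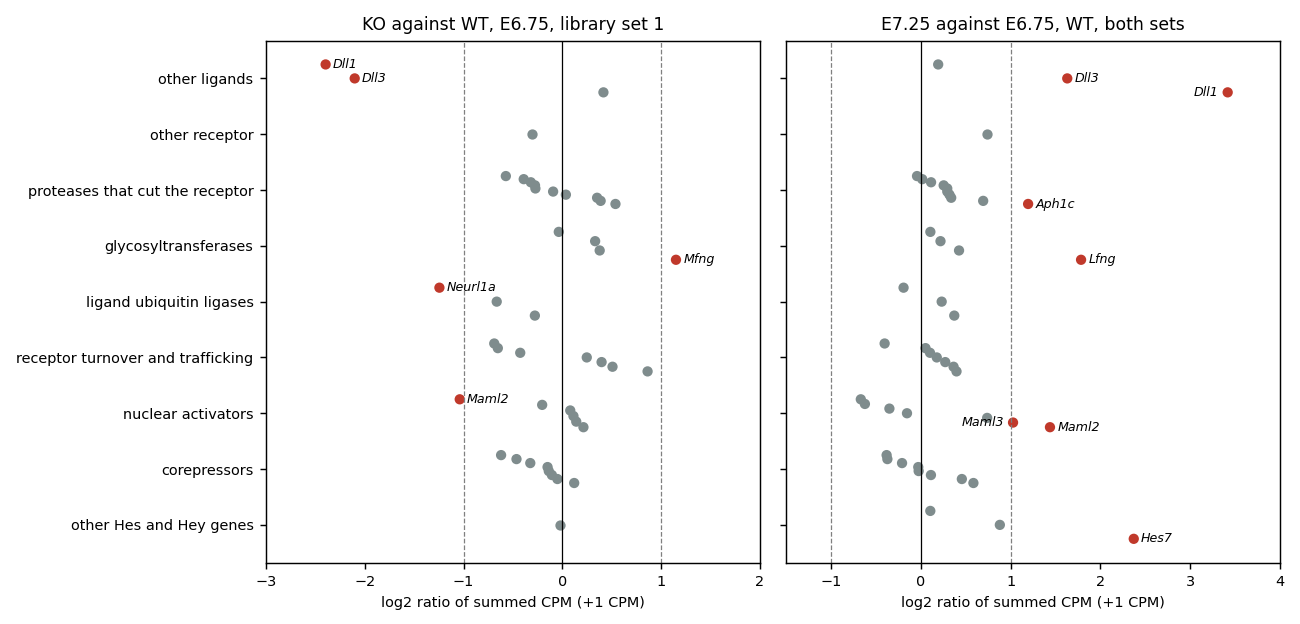
Log2 ratio of summed CPM + 1 for pathway genes of at least 1 CPM, by role, in knockout against wild type of set 1 (left) and across both ages of wild type (right). Red points are at least 2-fold from equal, with Dll1 and Dll3 farthest left in the left panel and Dll1 farthest right in the right panel.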

How the data were processed

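Single cells of 3 groups (85, 172 and 341) were taken to be sequenced by a plate-based full-length method without molecular identifiers, which the labels name. The protocol text that names it describes bone marrow cells, not embryonic ones. The authors deposited raw counts of reads for each gene and cell, made with GSNAP and HTSeq 0.5.3p3 on mm10, per the submitters' processing notes. What annotation release, strand setting and cell filters were used is not given in the sources used here. Cells had 101895 to 14159574 reads, none fell below 100000 reads or 2000 genes, and 40254 identifiers had a GENCODE symbol. Reads were summed per group with Python 3.11.15 and scaled to CPM, and ratios had 1 CPM added. The deepest cells weigh most in such sums. Genes were called at 2-fold, with no test. Pathway genes were named at 5 CPM and 2-fold in every usable library set.

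The alternatives were thinning, equal weights, stricter cell filters, other subsets of cells, and scaling factors from edgeR 4.0.16 (TMM) and DESeq2 1.42.0. These tools gave factors only. Clusters were made with scanpy 1.11.5 (2000 variable genes, 20 components, 15 neighbours, resolution 1), and no doublet caller was run. Cells with Y-linked reads had above 3 CPM over 3 genes. Only the ratio of summed CPM and the rank correlation were tried on simulated data. The members and lists were chosen with earlier results of these data known.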

Additional observations from a re-analysis of the deposited data

Results flagged for a closer look

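Jag1 differed in direction between knockout and wild type depending on the Y-linked reads of the cells compared. Among library set 1 cells with Y-linked reads, its log2 ratio was -1.06, from 7.76 CPM in 49 knockout cells and 17.3 CPM in 53 wild type cells. Among cells without such reads it was 1.88, from 27.5 CPM in 36 knockout cells and 6.73 CPM in 30 wild type cells. The difference between these 2 ratios was not tested. A few cells carried much of each sum: the 5 cells with the most Jag1 reads gave 48.8% and 60.9% of the reads in knockout and wild type with Y-linked reads, and 58.4% and 86.7% without. The median cells were at 3.08 and 1.91 CPM with Y-linked reads, in that order, and at 7.65 and 0 CPM without. By medians the knockout was thus the higher group on both sides. Notch2 (-1.21 and 0.24) and Notch3 (0.43 and -1.02) also had opposite signs, with 1 side of each within 2-fold.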

How the results depend on the processing

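No paired analysis was possible because the numbers in the labels only count cells and each group was treated as 1 sample with no test. The count of the 7 genes at least 2-fold lower in knockout (2) was 1 with cells weighted equally or thinned, 0 with 10 CPM added and 4 among cells with Y-linked reads. The count higher (1) was 0 with equal weights, thinning, the deepest 10% left out, 10 CPM added or wild type cells of both sets. Of the other pathway genes, 4 were lower, but 2 at a minimum of 10 CPM or with 10 CPM added, and 8 with both sets. The 1 higher became 0 at that minimum or with 10 CPM added, 2 with equal weights, without the deepest cells, with Y-linked reads or with both sets, and 6 without Y-linked reads. For E7.25, the count of the 7 genes lower (1) was 0 with equal weights, thinning, the deepest 10% left out, 10 CPM added or Cdh1 below 10 CPM, and 2 in set 1 alone, whether or not split by Y-linked reads. The count higher (2) was 1 in set 1 cells without Y-linked reads. Pathway genes lower (0) became 2 in set 1 cells with and in those without Y-linked reads, and those higher (7) became 4 at a minimum of 10 CPM, 2 with 10 CPM added and 11 in set 1 cells without Y-linked reads. Genes whose clusters differed 2-fold in both sets went from 7 to 4 at resolution 0.5. The cause of these shifts was not tested. The other alternatives left these counts within 1.5 times their value. An unchanged count could still cover other genes. In set 1 cells without Y-linked reads, Notch3 (-1.02) and Jag1 (1.88) passed 2-fold in knockout, while Hey1 (-0.28) and Nrarp (0.64) did not. The log2 ratio of the median gene was -0.11 at its farthest from 0. Nrarp was read in few cells, which limits its values.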
